A study of Mus musculus with 6 samples.

Results

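The extracellular matrix genes of Nestin-expressing cells were followed in the neonatal mouse cerebellum after irradiation. The set holds 40 of the 19630 genes listed, chosen by symbol as collagens, laminins, nidogens, fibulins, fibrillins and proteoglycans, and all 40 were found once each. Cerebella of Swiss webster mice with the genotype Nes-CFP/+, in which Nestin regulatory sequence drives a cyan fluorescent reporter, were dissociated at postnatal day 5, and CFP-positive cells were sorted for poly(A)-selected RNA-seq. The irradiated group was 3 such libraries after irradiation on postnatal day 1, and the control group was 3 libraries without irradiation, so both groups carried the reporter. Whether a library is 1 animal, a pool or a technical repeat is not stated, and each p-value reflects the spread between these libraries alone, which may be technical. Fluorescence marks Nestin reporter activity and not 1 cell type.

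A basement membrane is a thin sheet in which laminins and type IV collagen form separate networks that nidogens and perlecan join. In the brain such sheets lie under the pia and around blood vessels, where the endfeet of radial and Bergmann glia attach to them. The leptomeninges, to which the pia belongs, hold fibroblasts that make fibrillar collagens, type VI collagen and small proteoglycans. The neural tissue itself holds a loose matrix of hyaluronan and lecticans, the family of versican, neurocan and brevican. Accordingly the 40 genes were sorted into 15 meningeal or fibroblast matrix genes, 15 basement membrane genes, 5 neural matrix genes and 5 other collagens and glycoproteins. In bulk RNA from sorted cells, fewer cells of a type and less RNA per cell cannot be told apart.

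Values are scaled counts, that is, reads per gene divided by a size factor of the library, over libraries with 30986269 to 37067530 reads assigned to genes. Each log2 fold change is the irradiated mean minus the control mean of log2(scaled count + 1), given with its standard error (SE). Genes with a mean of at least 10 scaled counts were tested, 39 of the 40 and 16674 in all; only *Hapln1* was left out. A gene was called at an adjusted p below 0.05 in limma with Benjamini-Hochberg adjustment over all genes tested, two-sided. The cell types in the sort were checked by marker genes. Summed over 10 markers of Bergmann glia and astrocytes, the scaled counts ran from 365883 to 579356 in irradiated and from 495801 to 616062 in control libraries, with irradiated replicate 3 the lowest. The 9 markers of the oligodendrocyte lineage summed to 34716 to 49273 in irradiated and 31949.5 to 47943 in control libraries. For 7 granule lineage markers the sums were 46682 to 54945 in irradiated and 48013 to 55883 in control libraries. For 5 neural progenitor markers they were 93571 to 125536 and 101530 to 123812, and for 11 pericyte markers 6613 to 9569 and 8607 to 11087. Markers of vessels and meninges had lower sums. The 13 endothelial markers summed to 3245 to 4848 in irradiated and 4231 to 5424 in control libraries, and 16 meningeal fibroblast markers to 2289 to 3734 and 2825 to 4705. Of the 4705, in control replicate 1, the single marker *Ptgds* gave 1790. It had 550 and 98.7 in control replicates 2 and 3 and 395, 249 and 93.7 in irradiated replicates 1 to 3. Sums of different lists depend on the genes listed and do not measure the share of each cell type. No endothelial, pericyte or meningeal marker was at 0 in any library.

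None of the 39 matrix genes tested was called, and 9 of all 16674 genes were (0.054%). With the replicate number as a block, 25 genes were called over all genes (0.15%) and again none of the 39. Leaving out 1 library moved the count over all genes to 29 without irradiated replicate 1, 3 without irradiated replicate 2, and 2, 1 and 3 without control replicates 1, 2 and 3. Before adjustment, 9 of the 39 (23.1%) had a limma p below 0.05, 6 with lower and 3 with higher levels after irradiation, against 4.5% of all genes tested. With the replicate block it was 11 of the 39 against 8.29% of all genes tested, and without control replicate 3 it was 5 of the 39 against 3.80%. For 10 of the 39 (25.6%) the ranges of irradiated and control libraries were apart, against 8.83% of all genes tested. Irradiated libraries lay below all controls for 8 of the 39, against 4.01% of all genes tested. They lay above all controls for 2 of the 39, against 4.83% of all genes tested. In the fit 31 of the 39 had a lower level after irradiation and 8 a higher one, whereas 50.6% of all genes tested had a lower one. The median log2 fold change of the 39 was -0.18, beside -0.00276 over all genes tested. The members were chosen with earlier results of these data known, and genes of the same libraries are not independent. These shares are therefore descriptions, and no set test was run.

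Most meningeal and most basement membrane genes had lower levels in the irradiated libraries. The median log2 fold change was -0.17 in the meningeal group, where 13 of 15 genes were lower, and -0.18 in the basement membrane group, where 11 of 15 were lower. The neural matrix group had a median of -0.25 with 4 of 4 tested genes lower (3 of 4 after quantile normalization, where *Ptprz1* turned), and the other collagens and glycoproteins a median of -0.12 with 3 of 5 lower. Markers of vessel and meningeal cells also stood lower in the fit: 10 of 13 endothelial markers (median log2 fold change -0.23), 10 of 13 meningeal fibroblast markers (median -0.26) and 8 of 11 pericyte markers (median -0.29). The gene *Pdgfrb* counts in both the meningeal fibroblast and the pericyte list. The part of these markers in the medians of the matrix groups was not tested. Single libraries moved the medians of the matrix groups. Without irradiated replicate 1 the meningeal median was -0.05, with 8 of 15 genes lower, and the basement membrane median was -0.13, with 11 of 15 lower. Without irradiated replicate 2 they were -0.27 and -0.28, without irradiated replicate 3 they were -0.28 and -0.11, and without control replicate 2 the basement membrane median was -0.28. Without control replicate 3 the median of the other genes was 0.00797.

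**Figure D1:**
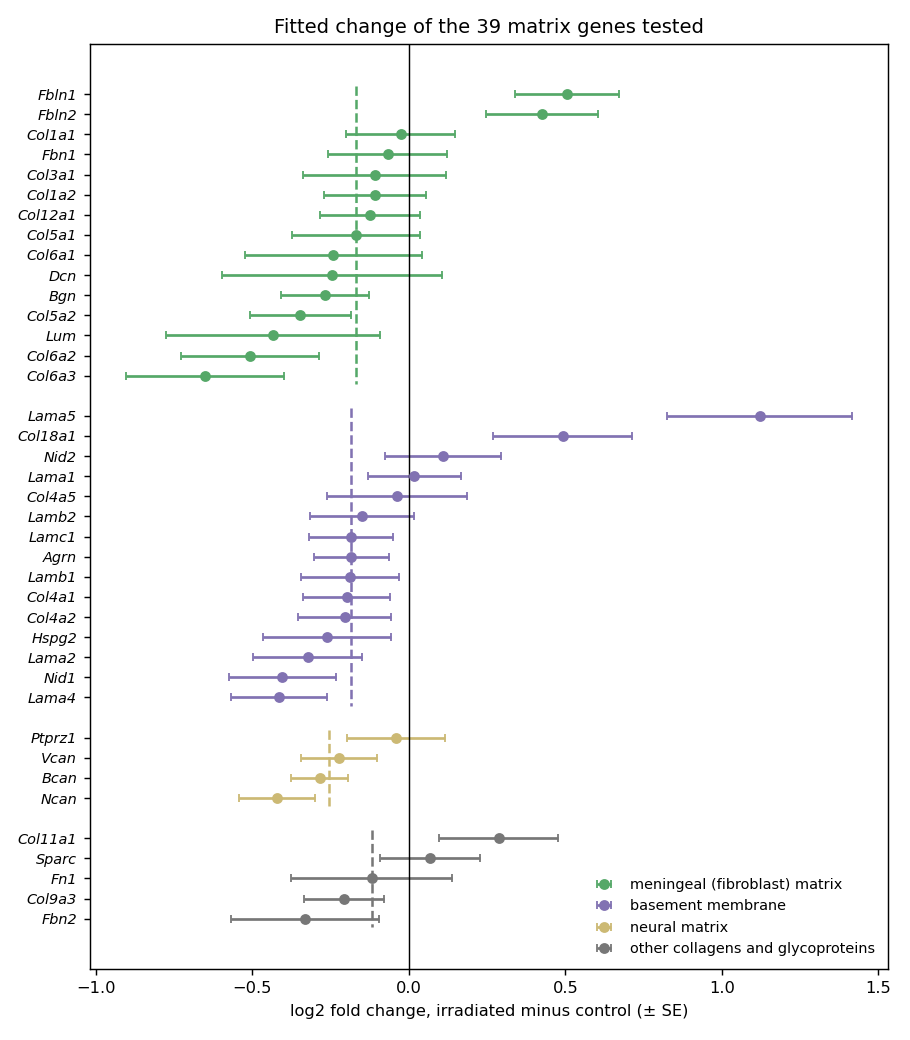
Fitted log2 fold change (irradiated minus control, ± SE, n = 3 libraries each) of the 39 matrix genes tested, grouped by role, with a dashed line at each group's median. *Lama5* stands at 1.12, the farthest from 0, and the 4 medians lie between -0.12 and -0.25.

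Upstream sequence is shown for the genes with the largest higher value in each of the basement membrane and meningeal groups, *Lama5* and *Fbln1*, for the gene with the largest lower value, *Col6a3*, and for *Bcan*, a neural gene whose libraries lay close together within each group. The sequences are the 250 bases before the annotated start, read 5′ to 3′ on the gene's strand, from RefSeq on build GRCm38.p6, whose promoter table held 28 of the 40 genes. Capitals mark matches on either strand to the GC box (GGGCGG or CCGCCC), the CCAAT box (CCAAT or ATTGG), the TATA box (TATAAA or TTTATA) and the E-box (CACGTG).
Lama5, chr2:180225860-180226109, minus strand: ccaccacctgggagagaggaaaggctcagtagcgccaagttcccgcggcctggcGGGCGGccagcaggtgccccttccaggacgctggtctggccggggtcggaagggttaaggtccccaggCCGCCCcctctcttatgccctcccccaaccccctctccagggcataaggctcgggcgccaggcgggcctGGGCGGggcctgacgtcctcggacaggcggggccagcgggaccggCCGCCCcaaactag
Fbln1, chr15:85205699-85205948, plus strand: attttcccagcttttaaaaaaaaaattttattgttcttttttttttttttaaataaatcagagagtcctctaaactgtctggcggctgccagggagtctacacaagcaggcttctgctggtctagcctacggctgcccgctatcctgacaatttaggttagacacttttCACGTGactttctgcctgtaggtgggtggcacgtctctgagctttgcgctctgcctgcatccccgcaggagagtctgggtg
Col6a3, chr1:90843972-90844221, minus strand: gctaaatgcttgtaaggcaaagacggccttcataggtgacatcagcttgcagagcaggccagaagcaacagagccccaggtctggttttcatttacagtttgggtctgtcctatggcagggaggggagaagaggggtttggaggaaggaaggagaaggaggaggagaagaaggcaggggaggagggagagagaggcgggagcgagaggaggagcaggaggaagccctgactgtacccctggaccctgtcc
Bcan, chr3:88000357-88000606, minus strand: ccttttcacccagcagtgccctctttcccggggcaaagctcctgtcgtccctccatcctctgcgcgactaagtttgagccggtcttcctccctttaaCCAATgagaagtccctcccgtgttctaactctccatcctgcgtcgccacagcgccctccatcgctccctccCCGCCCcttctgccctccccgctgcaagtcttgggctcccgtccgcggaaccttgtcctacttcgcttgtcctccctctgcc

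The window of *Lama5* held 4 GC boxes with a GC content of 72.4%, and that of *Bcan* held 1 GC box and 1 CCAAT box at 62% GC. The window of *Fbln1* shown held 1 E-box at 46.4% GC (that of a second RefSeq start of the gene, chr15:85205758-85206007, held the E-box and 1 GC box at 62.4% GC), and that of *Col6a3* held no match to any of the 4 motifs. Over the 32851 windows of the same length in the table, 32.7% held a GC box, 33.8% a CCAAT box, 12.4% a TATA box and 6.02% an E-box. These matches describe the letters and not binding.

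*Lama5* encodes the laminin alpha5 chain of vascular and epithelial basement membranes. It had 929.9, 1821 and 2276 scaled counts in irradiated replicates 1, 2 and 3, against 669, 618 and 903 in control replicates 1, 2 and 3. All irradiated libraries lay above all controls, with irradiated replicate 1 just above the highest control. The log2 fold change was 1.12 (SE 0.30), and the gene was not called (limma adjusted p = 0.529). Without irradiated replicate 1 it was called, at a log2 fold change of 1.50 (SE 0.19, limma adjusted p = 0.0255), and without irradiated replicate 3 the log2 fold change was 0.85. Over the other alternatives its limma adjusted p ran from 0.15, with the replicate block, to 1. The gene lies on chromosome 2 from 180176373 to 180225859 on the minus strand (GRCm38).

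*Col18a1*, which encodes the collagen XVIII chain that holds endostatin, followed the same order of irradiated libraries. It had 884, 1250.2 and 1699 scaled counts in irradiated replicates 1 to 3 and 927, 742 and 981 in control replicates 1 to 3, and the groups overlapped. The log2 fold change was 0.49 (SE 0.22, limma adjusted p = 1). *Col18a1* shares 8825 bases of the genome with *Slc19a1* on the opposite strand, and no source used here says whether counting used strand. The 7 markers of choroid plexus and ependyma summed to 1614, 1760 and 4093 in irradiated replicates 1 to 3 and to 1252, 1355 and 846 in control replicates 1 to 3, without overlap, but the single markers differed. *Clic6*, a choroid plexus gene, had 169.9, 243 and 269 scaled counts in irradiated replicates 1 to 3 and 91.3, 72.8 and 104 in control replicates 1 to 3, in the same order of irradiated libraries as *Lama5* (log2 fold change 1.33, SE 0.24, limma adjusted p = 0.169). *Foxj1*, a regulator of motile cilia, had 1291, 1399 and 1038 in irradiated replicates 1 to 3 and 1030.3, 1004 and 631 in control replicates 1 to 3, so it was lowest among the irradiated libraries in replicate 3, where *Lama5* and *Col18a1* were highest. These 2 markers alone had an unadjusted limma p below 0.05. *Ttr*, the transthyretin gene of choroid plexus, had 2658 scaled counts in irradiated replicate 3, most of that library's sum, and 13.7 to 190.0 in the other 5 libraries. The log2 fold changes of *Aqp1*, *Folr1* and *Kl* were -0.00661, -0.02 and 0.11, and *Kcnj13*, at 10.1 or less in every library, was at 0 in irradiated replicate 2. The order of irradiated libraries shared by *Lama5*, *Col18a1* and *Clic6* was not particular to choroid genes. *Atoh1*, a granule lineage marker, had 283, 483 and 681 in irradiated replicates 1 to 3 and 209, 144 and 324 in control replicates 1 to 3. Irradiated replicate 1 was the lowest irradiated library for 6 of 7 granule lineage, 8 of 9 oligodendrocyte lineage and 6 of 6 microglia markers. It was so for 0 of 10 Bergmann glia and astrocyte markers. The part of any of these cell types in the *Lama5* and *Col18a1* values was not tested.

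The set holds 3 other laminin alpha chain genes, *Lama1*, *Lama2* and *Lama4*, and none was higher beyond its spread. *Lama4*, the alpha4 chain gene of endothelial basement membranes, had 641, 846 and 601 scaled counts in irradiated replicates 1 to 3 and 978, 909 and 869.5 in control replicates 1 to 3. The groups did not overlap, and the log2 fold change was -0.41 (SE 0.15, limma adjusted p = 0.964). Of the endothelial markers 10 of 13 were lower as well and 3 were higher, all with overlapping groups. The 3 with the highest mean, *Cldn5*, *Kdr* and *Cdh5*, had log2 fold changes of -0.31, -0.18 and -0.30. The 3 higher ones, *Ly6c1*, *Slco1a4* and *Flt1*, stood at 0.30, 0.14 and 0.06. The part of the endothelial markers in the *Lama4* value was not tested. *Lama2*, whose chain is found in muscle and at glial endfeet, had 953, 1349 and 1247 in irradiated replicates 1 to 3 and 1416, 1238 and 1792 in control replicates 1 to 3, with overlap (log2 fold change -0.32, SE 0.17). *Lama1*, the alpha1 chain gene of the pial basement membrane, averaged 1106 ± 186 scaled counts in irradiated and 1087 ± 112 in control libraries (SD, n = 3 each). Per kilobase of annotated exon, *Lama5* made up 27.7%, 35.6% and 46.4% of the summed level of these 4 alpha chain genes in irradiated replicates 1 to 3 and 18.0%, 16.8% and 20.8% in control replicates 1 to 3. The share of *Lama2* was 17.7% to 19.8% in irradiated and 23.5% to 28.7% in control libraries. That of *Lama4* was 11.6% to 18.0% in irradiated and 18.9% to 24.9% in control libraries, so the ranges of all but *Lama1* were apart. Shares within 1 sum are tied to each other, so a larger share of 1 gene lowers the others.

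**Figure D2:**
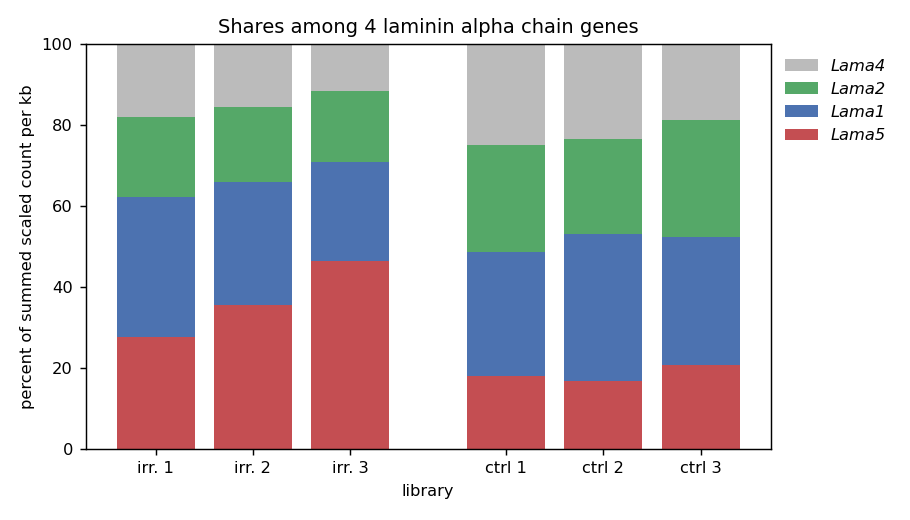
Share of each laminin alpha chain gene in the summed scaled count per kilobase of the 4 genes (percent, stacked to 100) in each of the 3 irradiated (irr.) and 3 control (ctrl) libraries. The *Lama5* share is 27.7% to 46.4% in irradiated libraries and 16.8% to 20.8% in controls.

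The beta and gamma chain genes had overlapping groups. *Lamb1* and *Lamb2*, for the beta1 and beta2 chains, averaged 841 ± 155 and 3021 ± 512 scaled counts in irradiated libraries, and 948 ± 60.6 and 3354 ± 600.4 in controls (SD, n = 3 each). *Lamc1*, for the gamma1 chain that most laminins share, averaged 3504 ± 383 in irradiated and 3993 ± 571 in control libraries. Their log2 fold changes ran from -0.19 to -0.15.

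*Nid1* encodes nidogen-1, the linker between laminin and type IV collagen, and had the highest level per kilobase of the 15 basement membrane genes. It had 24229, 25400.0 and 16413 scaled counts in irradiated replicates 1 to 3, against 32451, 25973 and 27842 in control replicates 1 to 3. Irradiated libraries lay below all controls, replicate 2 narrowly (log2 fold change -0.41, SE 0.17, limma adjusted p = 1). The paralog *Nid2* averaged 623 ± 155 in irradiated and 566 ± 22.1 in control libraries. Per kilobase of exon, *Nid1* stood 19.5 to 38.7 times above *Nid2* in irradiated libraries and 33.4 to 44.8 times in controls. The Bergmann glia and astrocyte sum was lowest in irradiated replicate 3, where *Nid1* was lowest too, and its part in the *Nid1* value was not tested.

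*Col4a1* and *Col4a2* encode the 2 chains of the most common type IV collagen and are transcribed head to head on chromosome 8. Their annotated starts overlap by 22 bases, chr8:11312805-11312826 (GRCm38), shown here on each gene's strand because 1 stretch of DNA starts both genes. Motif matches are not marked by capitals here. The stretch holds a GC box match, CCGCCC on the *Col4a1* strand and GGGCGG on the *Col4a2* strand.
Col4a1, minus strand: ttggagacgccgcccgcgcact
Col4a2, plus strand: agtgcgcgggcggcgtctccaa
*Col4a1* had 3296, 4353 and 4026 scaled counts in irradiated replicates 1 to 3 and 4836, 3809 and 4738 in control replicates 1 to 3. *Col4a2* averaged 1814 ± 316 in irradiated and 2077 ± 204 in control libraries. Both log2 fold changes were close to each other, -0.20 (SE 0.14) for *Col4a1* and -0.21 (SE 0.15) for *Col4a2*, with overlapping groups. The ratio of *Col4a1* to *Col4a2* per kilobase was 1.91 ± 0.0732 in irradiated and 1.90 ± 0.109 in control libraries (SD, n = 3 each), a difference within the spread of either group. *Col4a5*, an X-linked type IV chain gene, averaged 3109.9 ± 714 in irradiated and 3218 ± 942 in control libraries.

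The heparan sulfate proteoglycan genes had overlapping groups. *Agrn*, for agrin, which also organises the neuromuscular junction, had 9066, 11043 and 8489 scaled counts in irradiated replicates 1 to 3 and 11532, 10423 and 10379 in control replicates 1 to 3. Its log2 fold change was -0.18 (SE 0.12), and irradiated replicate 2 lay among the controls. *Hspg2*, for perlecan, had 1818, 2748 and 1671 in irradiated replicates 1 to 3 and 2852, 1938 and 2597 in control replicates 1 to 3, with a log2 fold change of -0.26 (SE 0.20).

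**Figure D3:**
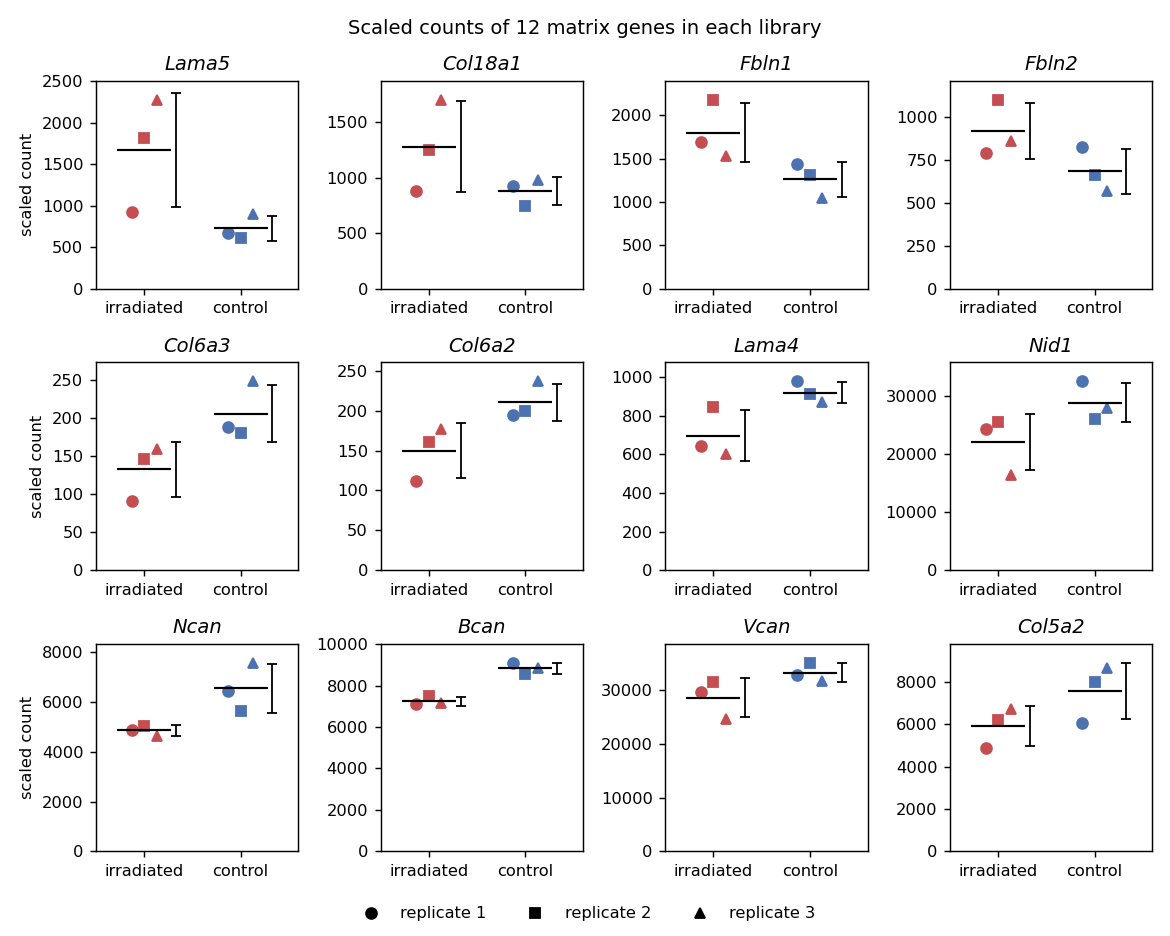
Scaled counts of 12 matrix genes in each library (points, shaped by replicate number), irradiated left and control right, with the group mean (line) and SD (bar) over 3 libraries. *Lama5* and *Fbln1* show all irradiated points above all control points, and *Col6a3*, *Col6a2*, *Lama4*, *Nid1*, *Ncan*, *Bcan* and *Vcan* show all of them below.

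In the meningeal group the 2 fibulin genes lay on the other side of their controls from the rest. *Fbln1*, for the elastic fibre and basement membrane protein fibulin-1, had 1692, 2178 and 1533 scaled counts in irradiated replicates 1 to 3, against 1439.5, 1312 and 1045 in control replicates 1 to 3. Irradiated libraries lay above all controls, and the log2 fold change was 0.51 (SE 0.17, limma adjusted p = 0.837). It stayed between 0.36 and 0.61 when any 1 library was left out. *Fbln2*, for fibulin-2, had 790.2, 1098 and 862 in irradiated replicates 1 to 3 and 825, 660.4 and 567 in control replicates 1 to 3, with overlap by irradiated replicate 1 (log2 fold change 0.43, SE 0.18, limma adjusted p = 1).

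The type VI collagen genes encode the chains of a beaded microfibril, and 2 of the 3 had the lowest log2 fold changes of the meningeal group. *Col6a3* had 91.7, 147 and 160.3 scaled counts in irradiated replicates 1 to 3, against 189, 180.1 and 249 in control replicates 1 to 3 (log2 fold change -0.65, SE 0.25, limma adjusted p = 0.996). *Col6a2* had 112, 161 and 177 in irradiated replicates 1 to 3 and 194, 199.8 and 237 in control replicates 1 to 3 (log2 fold change -0.51, SE 0.22, limma adjusted p = 1). For both genes the groups did not overlap. *Col6a1* averaged 191 ± 71.5 in irradiated and 216 ± 30.2 in control libraries, and its groups overlapped. *Pdgfrb*, a receptor gene of pericytes and fibroblasts, also lay lower in each irradiated library. It had 339, 461 and 353 in irradiated replicates 1 to 3 and 558, 550.2 and 769 in control replicates 1 to 3 (limma adjusted p = 0.542). Of the meningeal fibroblast markers tested 10 of 13 were lower in the fit, as were 8 of 11 pericyte markers, with *Pdgfrb* counted in both. The meningeal markers *Igf2*, *Slc22a6* and *Ogn* were higher, at log2 fold changes of 0.20, 0.18 and 0.04. So were the pericyte markers *Higd1b*, *Abcc9* and *Anpep*, at 0.17, 0.06 and 0.00368. The part of these markers in the type VI collagen values was not tested.

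The fibrillar collagen genes of types I and III, whose chains form the cable-like fibrils of connective tissue, differed little. *Col1a2* had 3244, 3382 and 2157 scaled counts in irradiated replicates 1 to 3 and 3075, 3086 and 3133 in control replicates 1 to 3, so that irradiated replicates 1 and 2 lay above all controls and irradiated replicate 3 below them. *Col1a1*, for the other chain of type I collagen, averaged 421 ± 75.1 in irradiated and 426 ± 44.4 in control libraries. Type I collagen holds more alpha1 than alpha2 chain, yet per kilobase of exon *Col1a2* stood above *Col1a1* in every library, by 2.68 to 4.98 times in irradiated and 3.53 to 4.29 times in control libraries. An annotated transcript of unknown status on the same strand overlaps *Col1a2*, and its exon length is the union of its isoforms. *Col3a1* averaged 1057 ± 330.0 in irradiated and 1103 ± 134 in control libraries.

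*Col5a2*, for a type V chain that limits fibril width, had 4899.6, 6196 and 6737 scaled counts in irradiated replicates 1 to 3 and 6076, 8023 and 8648 in control replicates 1 to 3. It was lower in each irradiated library than in the control of the same number, while the groups overlapped (log2 fold change -0.35, SE 0.16, limma adjusted p = 1, and 0.238 with the replicate block). Its partner *Col5a1* averaged 1219 ± 241 in irradiated and 1382 ± 360.5 in control libraries. *Col12a1*, for a collagen that sits on fibril surfaces, had 1478, 1986 and 1479 in irradiated replicates 1 to 3 and 1688, 1571 and 2125 in control replicates 1 to 3, with overlap.

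Small leucine-rich proteoglycans bind collagen fibrils. *Lum*, for lumican, had 48.0, 66.3 and 109 scaled counts in irradiated replicates 1 to 3 and 67.1, 119 and 108 in control replicates 1 to 3 (log2 fold change -0.43, SE 0.34). *Dcn*, for decorin, averaged 246 ± 91.2 in irradiated and 295 ± 118 in control libraries. *Bgn*, for biglycan, had 557, 594 and 678 in irradiated replicates 1 to 3 and 817, 686 and 699 in control replicates 1 to 3, without overlap by a narrow margin (log2 fold change -0.27, SE 0.14). *Fbn1*, for the microfibril protein fibrillin-1, averaged 507 ± 116 in irradiated and 523 ± 51.0 in control libraries.

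Irradiated replicate 1 was the lowest of the irradiated libraries for 12 of the 15 meningeal genes (80%), for 8 of the 15 basement membrane genes (53.3%) and for 34.7% of all genes tested. It was also the lowest for 11 of 13 endothelial and 11 of 13 meningeal fibroblast markers. Relative to the mean of the controls, the median meningeal gene stood at -0.48, 0.11 and 0.00115 on the log2 scale in irradiated replicates 1, 2 and 3, and at -0.08, -0.06 and 0.14 in control replicates 1, 2 and 3. The median basement membrane gene stood at -0.25, 0.04 and -0.23 in irradiated replicates 1, 2 and 3 and at 0.09, -0.16 and 0.10 in control replicates 1, 2 and 3.

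**Figure D4:**
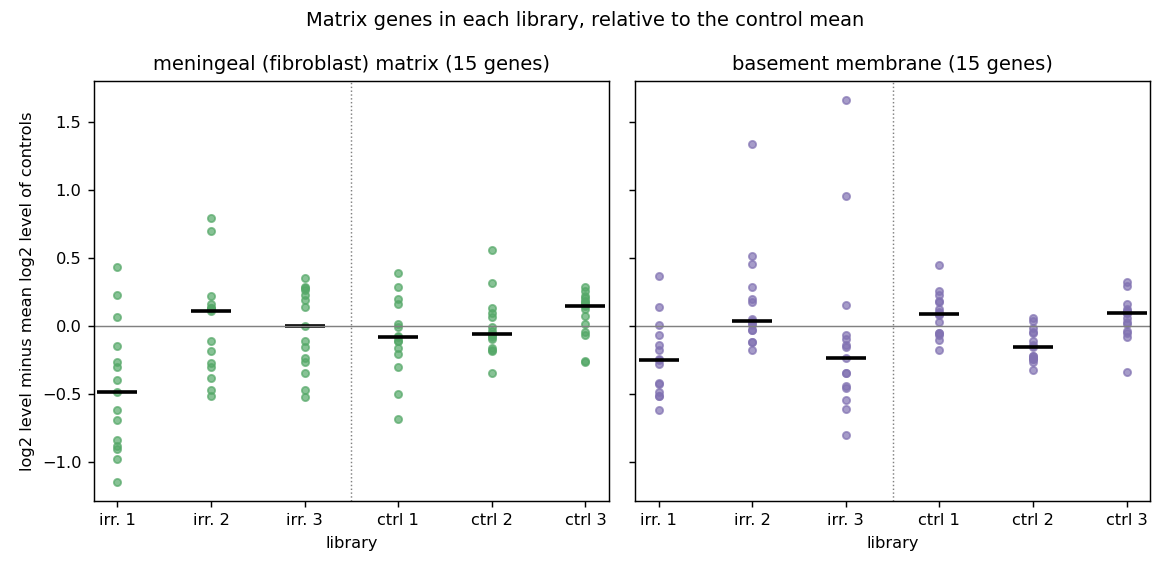
Log2 level of each of the 15 meningeal (left) and 15 basement membrane (right) genes minus that gene's mean log2 level in controls, by library (irr., irradiated; ctrl, control), with a bar at the median. Irradiated replicate 1 has the lowest meningeal median, -0.48, while the basement membrane medians of irradiated replicates 1 and 3 are -0.25 and -0.23.

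Among the neural matrix genes none was called, and *Ptprz1* was level. Irradiated libraries lay below all controls for 3 of the 4 tested, against 4.01% of all genes tested. *Ncan*, for neurocan, a chondroitin sulfate proteoglycan of developing brain, had 4888, 5041 and 4625 scaled counts in irradiated replicates 1 to 3, against 6442, 5618 and 7571 in control replicates 1 to 3. The groups did not overlap, and the log2 fold change was -0.42 (SE 0.12, limma adjusted p = 0.676). *Bcan*, for brevican, had 7094, 7489 and 7145 in irradiated replicates 1 to 3, against 9095, 8542 and 8848 in control replicates 1 to 3. The libraries of each group lay close together and apart from the other group (log2 fold change -0.29, SE 0.09, limma adjusted p = 0.816). Without any 1 library the log2 fold change of *Ncan* stayed between -0.53 and -0.31 and that of *Bcan* between -0.31 and -0.26.

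*Vcan*, for versican, had 29714, 31570.3 and 24566 scaled counts in irradiated replicates 1 to 3 and 32899.7, 35157 and 31733 in control replicates 1 to 3. The groups were apart by a narrow gap, with a log2 fold change of -0.22 (SE 0.12). *Ptprz1*, for a receptor phosphatase of glia whose secreted form is phosphacan, had 51772, 58506 and 44075 in irradiated replicates 1 to 3 and 61159, 43673 and 54392 in control replicates 1 to 3. Its log2 fold change was -0.04 (SE 0.16), and it turned to 0.00212 after quantile normalization, to 0.0661 without irradiated replicate 3 and to 0.0685 without control replicate 1. Of the Bergmann glia and astrocyte markers 8 of 10 were lower in the fit (median log2 fold change -0.17). The other 2, *Gja1* and *Gdf10*, were higher, at log2 fold changes of 0.36 and 0.11. *Aqp4*, the water channel gene of astrocyte endfeet, had 50934, 42231 and 36359 scaled counts in irradiated replicates 1 to 3. All lay below the 58952, 55739 and 61470 of control replicates 1 to 3, and *Aqp4* was the only 1 of the 10 markers with groups apart. The part of these cells in the neural matrix values was not tested. *Hapln1*, for the link protein that fixes lecticans to hyaluronan, had 3.13, 6.21 and 16.1 in irradiated replicates 1 to 3 and 4.20, 4.92 and 7.73 in control replicates 1 to 3. These levels fall below the minimum for testing.

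Among the other genes, *Sparc*, for a collagen-binding glycoprotein of glia and endothelium, had 32595, 27879 and 21719.6 scaled counts in irradiated replicates 1 to 3 and 29873, 24179 and 23787 in control replicates 1 to 3. *Col9a3*, for a chain of collagen IX known from cartilage, had 7649, 7887 and 6167 in irradiated replicates 1 to 3 and 9334, 7679.8 and 8002 in control replicates 1 to 3. Both genes had overlapping groups, as had the other three. *Fn1*, for the cell adhesion glycoprotein fibronectin, had 1745, 3109 and 3577 in irradiated replicates 1 to 3 and 2663, 2472 and 3780.3 in control replicates 1 to 3, so that replicate 3 was the highest of both groups. *Col11a1*, for a minor fibrillar collagen, had 898, 1319 and 1553 in irradiated replicates 1 to 3 and 982, 942 and 1094 in control replicates 1 to 3. *Fbn2*, for fibrillin-2 of developing tissue, had 502, 514 and 618 in irradiated replicates 1 to 3 and 458, 923 and 753 in control replicates 1 to 3. Log2 fold changes in these 5 genes ran from -0.33 to 0.29, and none had an unadjusted limma p below 0.05.

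Levels per kilobase of annotated exon ranked *Sparc* first, at 7233 ± 1439.7 scaled counts per kilobase in irradiated and 6849.6 ± 899 in control libraries (SD, n = 3 each). *Ptprz1*, with 3612 ± 507 in irradiated and 3726 ± 619 in control libraries, and *Nid1*, with 3171 ± 704 in irradiated and 4142 ± 480.2 in control libraries, came next. The order of these 2 genes is within the spread and differs between the groups. *Vcan*, *Col9a3* and *Bcan* followed, with 1979 ± 251, 1878 ± 242 and 1782 ± 52.8 in irradiated and 2300.0 ± 120.4, 2164 ± 228 and 2172 ± 68.2 in control libraries, close enough that their order is within the spread. The meningeal genes *Dcn*, *Lum*, *Col6a2* and *Col6a3* stood near the bottom, at 42.1 to 11.1 in irradiated and 50.5 to 17.2 in control libraries.

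**Figure D5:**
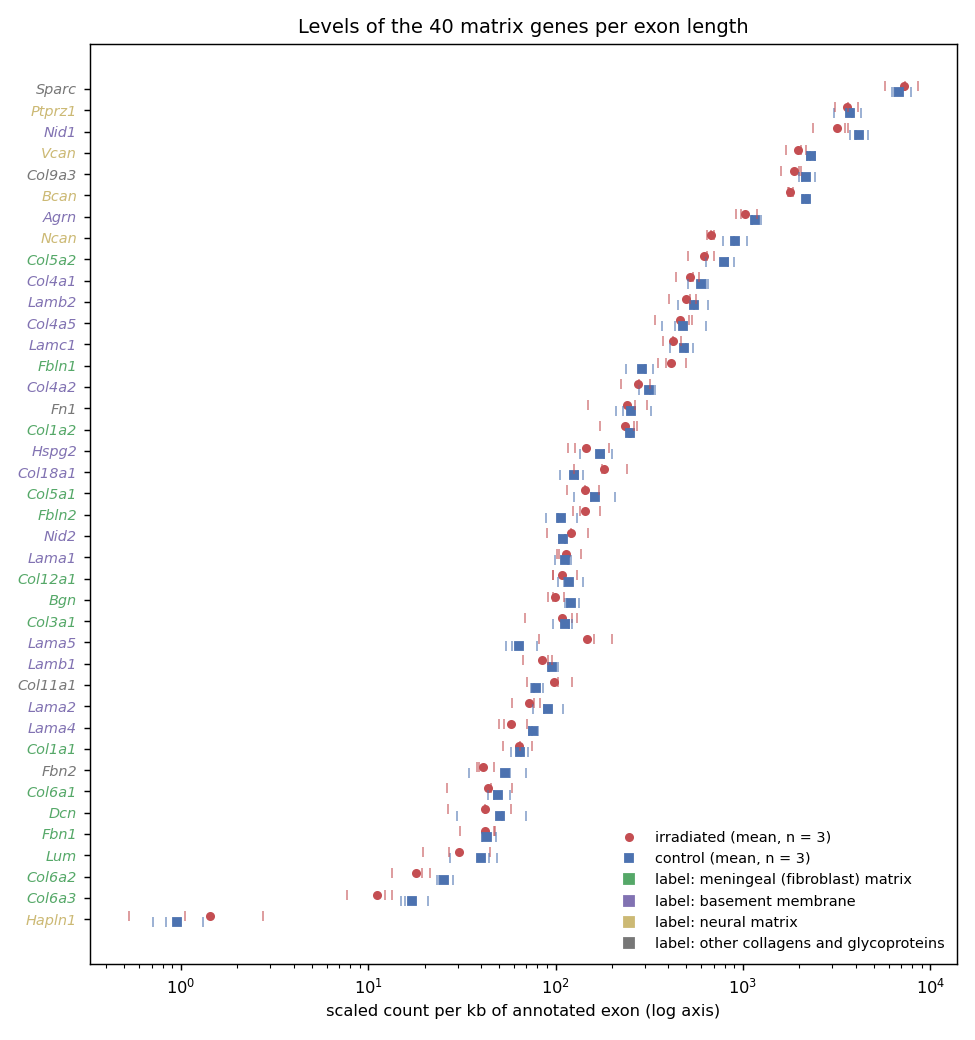
Scaled count per kilobase of annotated exon (log axis) of the 40 matrix genes, ordered by the mean over 6 libraries, with group means (irradiated as circles, control as squares) and single libraries as ticks. *Sparc*, *Ptprz1* and *Nid1* lead, and *Hapln1*, at 1.44 in irradiated and 0.951 in control libraries, is last.

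Genes that modify, bind or cut the matrix were read from the same fit, and none was called in any of 5 lists. Over all genes tested 50.6% were lower in the fit and 4.5% had an unadjusted limma p below 0.05. In the collagen processing list 5 of 25 tested genes were higher and 20 lower (80%, median log2 fold change -0.10), and 4 (16%) had an unadjusted limma p below 0.05. *Adamts14*, for an enzyme that removes the amino-terminal propeptide of collagens, had 475, 850.4 and 919 scaled counts in irradiated replicates 1 to 3, against 333, 279.5 and 209 in control replicates 1 to 3. The groups did not overlap (log2 fold change 1.42, SE 0.27, limma adjusted p = 0.184). *Adamts2*, for an enzyme with the same activity, had 193, 152 and 97.8 in irradiated replicates 1 to 3, against 322, 279 and 238 in control replicates 1 to 3, also without overlap (log2 fold change -0.96, SE 0.26, limma adjusted p = 0.557). The 2 paralogs thus lay on opposite sides of their controls.

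Among 26 receptors for matrix, 7 were higher and 19 lower (73.1%), with 2 (7.69%) at an unadjusted limma p below 0.05. These were *Sdc4* (log2 fold change -0.34, SE 0.13) and *Itga11*, at a mean of only 11.9 scaled counts (log2 fold change -1.24, SE 0.55). *Itgb3* and *Itga2*, given next for their larger changes at a mean of at least 50, had unadjusted limma p of 0.124 and 0.106. The integrin gene *Itgb3* had 60.5, 105 and 68.5 scaled counts in irradiated replicates 1 to 3 and 90.2, 112 and 107 in control replicates 1 to 3, with overlap. *Itga2*, for a collagen-binding integrin chain, had 139.7, 137 and 84.7 in irradiated replicates 1 to 3, all below the 158, 174 and 143 of control replicates 1 to 3. Among 19 tested proteases and their inhibitors 7 were higher and 12 lower (63.2%), with 4 (21.1%) at an unadjusted limma p below 0.05. *Timp4*, for an inhibitor of metalloproteinases, had 11874, 8170.4 and 6662 in irradiated replicates 1 to 3 and 14699, 10757 and 11717 in control replicates 1 to 3. *Adamts15*, for a protease that cuts lecticans, had 928, 782 and 540.2 in irradiated replicates 1 to 3 and 1165, 876 and 1043 in control replicates 1 to 3. Both groups overlapped by irradiated replicate 1, and both genes were lower in each irradiated library than in the control of the same number. With the replicate block the limma adjusted p was 0.246 for *Timp4* and 0.458 for *Adamts15*.

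Among 21 tested genes of the other neural matrix 7 were higher and 14 lower (66.7%), with 1 (4.76%) at an unadjusted limma p below 0.05. *Tnc*, for the glial glycoprotein tenascin-C, had 74888, 67268 and 39554 in irradiated replicates 1 to 3 and 98523, 70056 and 78062 in control replicates 1 to 3, and irradiated replicate 3 stood far below the rest. The hyaluronan synthase gene *Has3* had 98.0, 90.1 and 50.4 in irradiated replicates 1 to 3 and 58.8, 49.2 and 36.1 in control replicates 1 to 3. Its groups overlapped (log2 fold change 0.69, SE 0.32). The 1 gene counted above was neither of these but *Has2*, a synthase gene with a higher mean (703 against 63.8). *Has2* had 499, 627 and 691 in irradiated replicates 1 to 3 and 648, 834 and 918 in control replicates 1 to 3. Its groups overlapped too, and it was lower in the fit (log2 fold change -0.40, SE 0.18). *Has2* and *Has3* thus differed in direction. Among 19 genes of transforming growth factor beta signalling and matrix control 6 were higher and 13 lower (68.4%), with 3 (15.8%) at an unadjusted limma p below 0.05. *Ltbp1*, for a protein that stores latent transforming growth factor beta in the matrix, had 1375, 1505 and 1284 in irradiated replicates 1 to 3, against 2035, 1739 and 2192 in control replicates 1 to 3, without overlap (log2 fold change -0.52, SE 0.12, limma adjusted p = 0.438). *Cyr61*, for a matricellular protein, had 1804, 2515 and 2253 in irradiated replicates 1 to 3 and 1699, 1157 and 1941 in control replicates 1 to 3, with overlap.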

How the data were processed

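RNA-seq of Nes-CFP-positive cells, 3 irradiated and 3 control libraries, was read from 1 deposited table of scaled values. Per the labels the signal is a count scaled by DESeq, and HTSeq, DESeq and build mm10 are listed, per the submitters' processing notes. Neither the aligner nor the strand setting nor any version is stated there. From the values, the authors' deposited signal is a read count divided by a size factor with 1 added, and after the 1 was taken off 100% of values in each library were whole multiples of 1 read within 0.001 reads. No gene has fewer than 15 reads over the 6 libraries, so genes below that are not analysed here. In 25 rows the symbol had turned into a date and was looked up by gene ID. Exon lengths are unions over GENCODE M21 (GRCm38), which held 19542 of the 19630 gene IDs.

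Genes were compared without a block by limma-trend in R 4.3.3 (limma version 3.58.1), and the script was tested on simulated data. Chi-square per degree of freedom between libraries of 1 group was 16.3 to 54.0. This is far above the value near 1 that a second sequencing of 1 library, with counting noise alone, would give. Deviations from group means correlated across genes, which are not independent, by 0.305, 0.151 and 0.451 between libraries with the same number. Between libraries of different number they correlated by -0.342 to 0.0503. Deviations cancel within each group, so positive values for some pairs push the others down. The contrast thus cannot settle whether libraries are paired by number, and no label says what a number shares. The members and lists were chosen with earlier results of these data known. By rule, each role group gave values for the 6 genes with the largest change and the 3 with the highest level, and each other list for the 2 largest changes at a mean of at least 50. Other genes were named after their values were seen.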

Additional observations from a re-analysis of the deposited data

How the results depend on the processing

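The settings tried were no filter on low values, a minimum mean of 50, pseudocounts of 0.5 and 5, the replicate block, each library left out in turn and, chosen after seeing the data, 3 other scalings. Outside the left-out libraries no matrix gene was called in any of them, and only *Ptprz1* changed its direction (0.00212 after quantile normalization). The count over all genes was 25 with the replicate block, which changed no call among the matrix genes. Leaving out 1 library gave 1 to 29 genes called over all genes and 0 to 1 matrix genes, the 1 being *Lama5* without irradiated replicate 1. Group medians then ran from -0.28 to -0.05 (meningeal), -0.28 to -0.11 (basement membrane), -0.30 to -0.20 (neural) and -0.22 to 0.00797 (other), and the matrix genes lower in the fit numbered 26 to 33 of 39. In 14 genes the direction turned without some library: the log2 fold change ran from -0.27 to 0.00243 for *Col12a1*, -0.15 to 0.11 for *Col1a1*, -0.23 to 0.10 for *Col1a2*, -0.28 to 0.18 for *Col3a1*, -0.21 to 0.19 for *Col4a5*, -0.34 to 0.0267 for *Col5a1*, -0.50 to 0.0785 for *Col6a1*, -0.59 to 0.0483 for *Dcn*, -0.17 to 0.14 for *Fbn1*, -0.33 to 0.19 for *Fn1*, -0.12 to 0.10 for *Lama1*, -0.0641 to 0.30 for *Nid2*, -0.17 to 0.0685 for *Ptprz1* and -0.0685 to 0.22 for *Sparc*; the cause was not tested. The medians over 6 meningeal and 9 basement membrane genes alone were -0.11 and -0.20. The planned edgeR and DESeq2 count tests and TMM scaling were not run, since the deposited values are scaled and carry an added 1, and reads worked back from them were not accepted as raw counts. *Hapln1*, at a mean of 7.05 scaled counts, was not tested, and the effect of depth on the other genes was not examined.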
